A study of Mus musculus with 9 samples.

Results

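The difference examined is that between C2C12 myotubes given dexamethasone together with THSG and myotubes given dexamethasone alone, over every gene of the deposited expression table. C2C12 is a mouse myoblast line, and myotubes are the multinucleated, contractile cells that its myoblasts form by fusion. Of the series' 9 RNA sequencing libraries, 6 enter the difference, 3 with dexamethasone at 50 µM and 3 with dexamethasone at 50 µM plus THSG at 10 µM. The other 3 libraries, of vehicle-treated myotubes, gave the starting level of each gene and helped to estimate the spread. All groups were treated for 24 h, and every library with THSG also had dexamethasone, so an effect of THSG by itself was not measured. The members were chosen by their labels and not by any measured value, and each of the 10716 genes of the table was compared.

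Dexamethasone is a synthetic glucocorticoid. It binds the glucocorticoid receptor, which then activates genes such as the muscle ubiquitin ligases that mark contractile proteins for breakdown, and it serves in culture as a model of muscle wasting. THSG is not spelled out in the labels. The abbreviation commonly means tetrahydroxystilbene glucoside, a polyphenol of Polygonum multiflorum related to resveratrol, and polyphenols of this kind are studied for their action on oxidative stress. Cells answer such stress largely through the transcription factor NRF2, which is held back by KEAP1 and, once free, activates genes for glutathione, thioredoxin, NADPH and iron handling.

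The deposited values were taken to be FPKM (fragment counts scaled to transcript length and library size), and every value lay above 1, so more weakly expressed genes were not analysed here. The values summed to between 400218 and 422379 per library, and the depth in reads is unknown. Only 1 of 31 listed proteasome subunits and 9 of 27 listed chaperones were in the table, and why the others are missing is not known. Counts and shares below therefore cover the genes of the table only. The labels do not say whether replicates were separate cultures, so p-values measure only the spread between these libraries. The cell line field counts upward from one sample to the next while the titles all name C2C12, and the titles were followed. All 12 myotube markers were present, with mean levels over the 6 libraries from 80.5 to 4735 FPKM, and so were 6 of 6 markers of myoblasts and reserve cells, from 3.94 to 110.3 FPKM. Summed, these 6 came to between 227 and 238 FPKM without THSG and between 241 and 248 FPKM with it, and the 12 myotube markers to between 11748 and 12697 and between 12469 and 12796 FPKM. The summed markers of myoblasts and reserve cells thus did not overlap between the groups, while the sums of 13 fibroblast and reserve cell markers, given below, did. The part of either set in the results was not tested. In such bulk RNA, fewer cells of a type and less of a transcript per cell cannot be told apart. Of 11 endothelial markers 0 were measured, and of 12 immune markers only Cd14. Dexamethasone replicate 3 stood apart from the other libraries. On the first principal component of the 6 libraries, which held 28.9% of the variance, it lay at -15.9 and the others between -1.39 and 7.76. Mitochondrially encoded genes made up 13.9% of its summed FPKM, against 10.7% to 11.7% in the other 5 libraries with dexamethasone. Counts over gene lists are therefore given with and without it where it moves them by over 1.5 times. So are the differences printed for single genes with an unadjusted p under 0.05.

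No gene differed between myotubes with and without THSG past the threshold, an adjusted p under 0.05 in the limma test over all genes. The test called 0 of 10716 genes (percentage called 0), with a smallest adjusted p of 0.227. An unadjusted p under 0.05 was found for 777 genes (7.25%), of which 541 (5.05% of all genes) were higher with THSG and 236 (2.2%) lower. That split moved with the scaling between libraries, to 434 higher and 311 lower genes under median-ratio scaling, 411 and 307 once libraries had equal sums, and 388 and 353 under quantile normalization. Without dexamethasone replicate 3, 1 gene was called, Cks2, and 396 genes (3.7%) were higher and 157 (1.47%) lower at an unadjusted p under 0.05. These shares of all genes, 5.05% and 2.2% with every library and 3.7% and 1.47% without that one, are the background for each count of list members below that rests on an unadjusted p. Only 280 of the 541 higher genes and 89 of the 236 lower genes were among these. The 3 libraries with THSG all lay above the 3 without for 901 genes (8.41%) and all below for 519 (4.84%).

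For most genes of the table, the same measurements limited how large an effect of THSG could have gone unseen. All values of the table lay above 1 FPKM, so an effect on a gene below that level in any library could not be seen. A gene was counted as bounded when both one-sided limma tests against a given fold, up and down, had an adjusted p under 0.05. The adjustment limits the expected share of wrongly counted genes over the whole table, so it sets no firm limit for each single gene. Of all genes, 10671 (99.6%) were bounded within 2-fold, 10211 (95.3%) within 1.5-fold and 7417 (69.2%) within a log2 difference of 0.32, the tightest bound tried. The 95% interval lay wholly inside these bounds for fewer genes, 10646, 9951 and 6964 in that order. The log2 differences, always with minus without THSG and on the log2(FPKM + 0.1) scale, ran from -0.89 to 1.07 with a median of 0.02. Their median size without regard to sign was 0.07, against a median standard error of 0.08 and a median 95% interval of 0.18 to either side. A difference of at least 1.5-fold was measured for 40 genes and one of at least 2-fold for 4, Scand1, Immp2l, Runx2os1 and D330050I16Rik. The last 3 were named after their values were seen, and Runx2os1 and D330050I16Rik were at low levels. Runx2os1, an antisense transcript of the Runx2 locus, was 1.29, 1.08 and 1.34 FPKM without THSG and 2.99, 2.23 and 2.89 with it, and its difference was 1.06 (95% interval 0.61 to 1.52). The library kit keeps the strand, while the strand setting of the counting is not given in the sources used here. D330050I16Rik was 2.65, 2.81 and 3.09 FPKM without THSG and 6.62, 6.27 and 5.01 with it, a difference of 1.03 (0.66 to 1.41). Immp2l, a mitochondrial inner membrane peptidase, was 10.1, 3.09 and 2.00 FPKM without THSG and 13.0, 3.26 and 13.6 with it, a difference of 1.05 (-0.49 to 2.58), or 0.57 without dexamethasone replicate 3. Runx2os1 and D330050I16Rik had groups apart at an adjusted p of 0.227 in limma, and Immp2l varied widely within both groups. Without dexamethasone replicate 3, 10656 genes were bounded within 2-fold, 10078 within 1.5-fold and 6882 within the tightest bound. Apart from dexamethasone replicate 3, the distance between 2 libraries was much the same within a group and across the groups. The median size of the log2 difference between a pair of libraries was 0.09 to 0.11 within the groups and 0.09 to 0.13 between them. The largest were those from dexamethasone replicate 3 to the THSG libraries, at 0.117, 0.130 and 0.128, against 0.109 and 0.115 to its own group. Between the groups, pairs without that library ran from 0.088 to 0.104.

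How tight the bounds were depended on the level of expression. Genes were put into 5 equal classes by mean level over the 6 libraries. In the lowest class, 1.13 to 4.56 FPKM, the median interval reached 0.33 to either side, and 1766 of 2144 genes (82.4%) were bounded within 1.5-fold but only 416 within the tightest bound. The second class, up to 8.99 FPKM, had an interval of 0.23 to either side and 2065 of 2143 genes bounded within 1.5-fold. In the third, up to 16.3 FPKM, these were 0.18 and 2110 genes, and in the class after it, up to 32.6 FPKM, 0.14 and 2136 genes. The highest class, 32.6 to 13523 FPKM, had an interval of 0.12 to either side, with 2134 of 2143 genes bounded within 1.5-fold and 2025 within the tightest bound. Most genes that stayed unbounded were weakly expressed. Of the 505 not bounded within 1.5-fold, 378 were in the lowest class and 78 in the second, and of the 45 not bounded within 2-fold, 32 were in the lowest. By type of gene, 9873 of 10261 protein-coding genes (96.2%), 165 of 230 long non-coding genes (71.7%) and 137 of 175 pseudogenes (78.3%) were bounded within 1.5-fold.

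**Figure D1:**
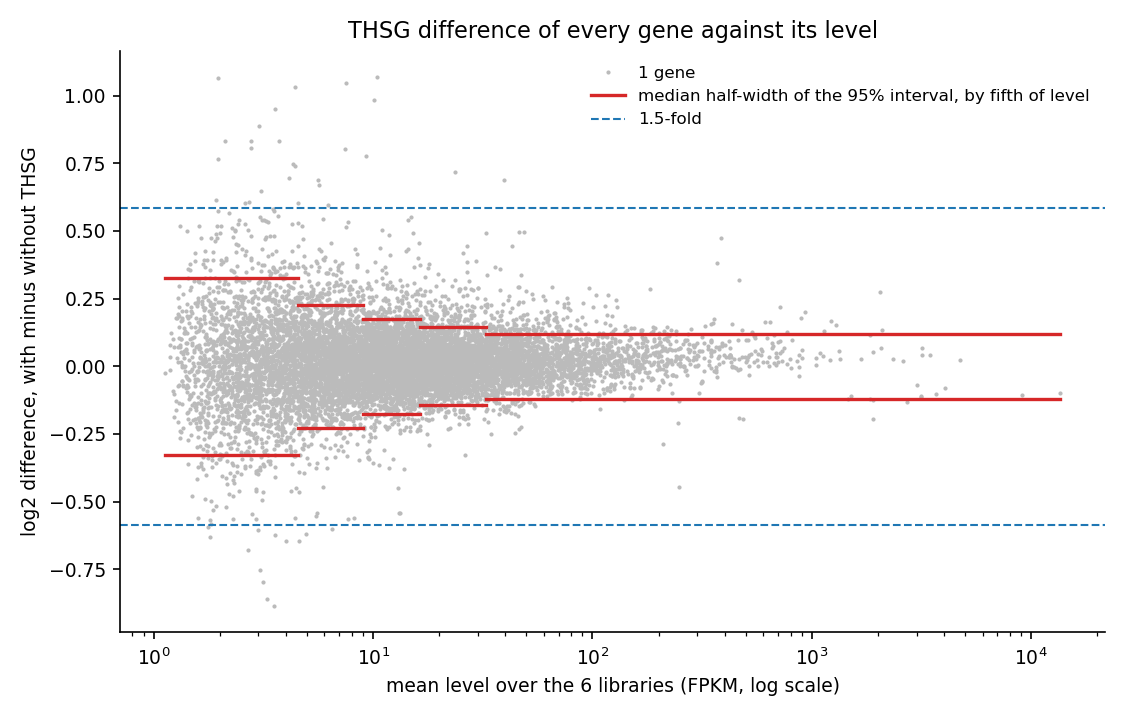
Log2 difference of each of the 10716 genes (grey points, with minus without THSG) against its mean level over the 6 libraries in FPKM on a log scale, with red lines at the median reach of the 95% interval in each of 5 classes of level and dashed lines at 1.5-fold. The red lines narrow from 0.33 in the lowest class to 0.12 in the highest, and most points beyond 1.5-fold are at low levels.

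Whether THSG altered the glucocorticoid response was read first from the genes that respond most to dexamethasone. Fkbp5, which encodes a co-chaperone of that hormone receptor and had a mean of 6.57 FPKM in vehicle myotubes, was 97.6, 98.2 and 97.5 FPKM without THSG and 98.7, 101 and 95.9 with it. The values overlap and the log2 difference was 0.01 (95% interval -0.08 to 0.11). Pdk4, a kinase that restrains pyruvate oxidation, was 78.8, 77.7 and 82.6 FPKM without THSG and 84.4, 79.2 and 79.9 with it, with a difference of 0.03 (-0.09 to 0.14). Sgk1, a kinase induced by glucocorticoids, was 101, 101 and 98.5 FPKM without THSG and 102, 97.0 and 101 with it, a difference of -0.01 (-0.11 to 0.10). These 3 targets stood at dexamethasone levels whether or not THSG was present. The 6 genes most raised by dexamethasone also included Ctla2a, a protease inhibitor gene, at 893, 841 and 849 FPKM without THSG and 945, 820.0 and 900.2 with it and a difference of 0.04 (-0.16 to 0.25). Selenop, which encodes a selenium transport protein, gave -0.005 (-0.12 to 0.11) and the metallothionein gene Mt2 0.11 (-0.05 to 0.28). Ccdc152, which overlaps Selenop on the other strand, was 116, 112 and 114 FPKM without THSG and 105, 102 and 99.2 with it, and its difference was -0.16 (-0.31 to -0.01). Its libraries with THSG lay below the others, at an adjusted p of 0.683, and the strand setting of the counting is not given in the sources used here. Mt1, the second metallothionein, was 1085, 1216 and 1157 FPKM without THSG and 1290.5, 1292 and 1297 with it, with the groups apart and a difference of 0.17 (-0.03 to 0.37).

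Of 32 genes listed as glucocorticoid responsive, 25 were measured. Their median difference was 0.04, against 0.02 over all genes, and 23 were bounded within 1.5-fold. Above 0 were 19 of 25, where 6020 of all 10716 genes were. That count was 17 under median-ratio scaling and with equal sums, 15 under quantile normalization, and 21 without dexamethasone replicate 3. The list's median lay between 0.01 and 0.07 under the alternative processing. The 2 members that were not bounded code for transcription factors of the C/EBP family. Cebpd, with 2.14 FPKM in vehicle, was 7.75, 7.57 and 6.30 FPKM without THSG and 10.1, 9.17 and 9.55 with it. Its groups did not overlap, with a difference of 0.41 (95% interval 0.19 to 0.64) and an adjusted p of 0.413 in the limma test. Without dexamethasone replicate 3, the lowest of its libraries, the difference was 0.32. Cebpb was 13.7, 14.5 and 9.63 FPKM without THSG and 20.2, 19.5 and 13.7 with it, groups that overlap, with a difference of 0.49 (0.001 to 0.98) that came to 0.31 without that library. Rgcc, a cell cycle regulator gene, was 5.34, 6.14 and 6.41 FPKM without THSG and 9.15, 7.45 and 5.94 with it, groups that overlap, with a difference of 0.31 (-0.002 to 0.62), and 0.36 (0.004 to 0.73) without that library. Members nearer to 0 included the receptor gene Nr3c1 at 0.03 (-0.17 to 0.23), the transcription factor gene Klf9 at -0.02 (-0.13 to 0.09), the clock gene Per1 at 0.05 (-0.11 to 0.20) and the glutamine synthetase gene Glul at 0.03 (-0.06 to 0.11).

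**Figure D2:**
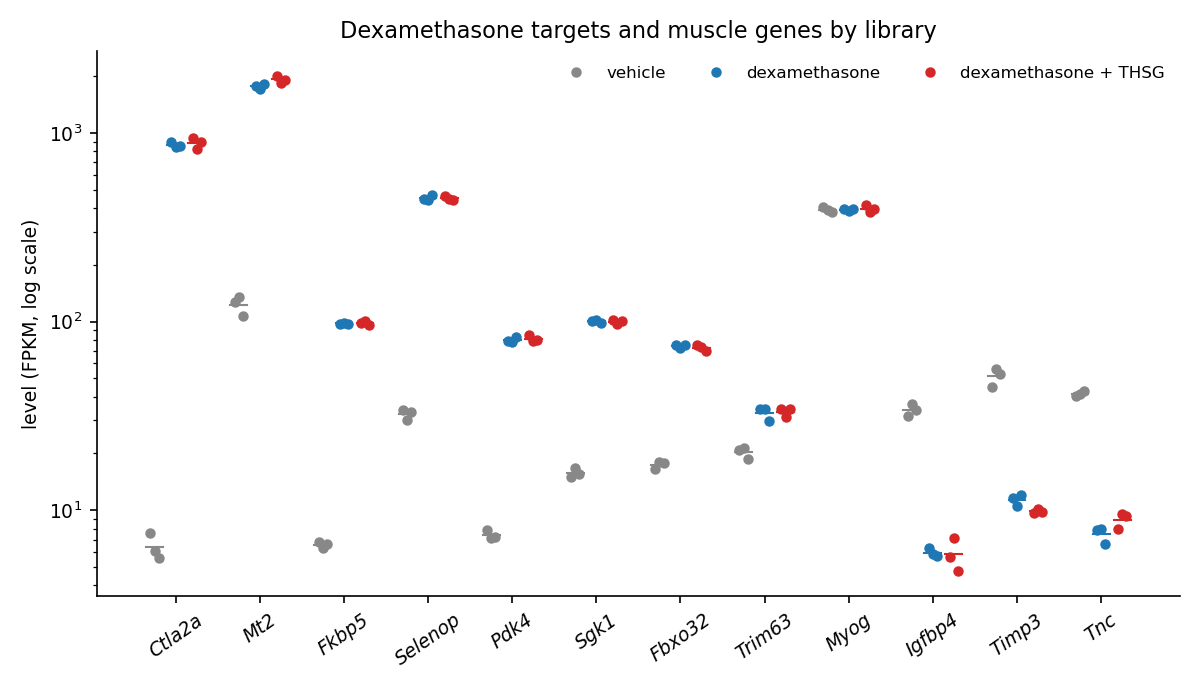
Level in FPKM on a log scale of 12 genes in each of the 9 libraries, for vehicle (grey), dexamethasone (blue) and dexamethasone plus THSG (red), with a short line at each group's mean. The means of the blue and red points differ by at most 0.25 on the log2 scale, for Tnc, and Fkbp5 stands at 95.9 to 101 FPKM in both groups.

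All genes were also sorted by their response to dexamethasone, taken as the mean of both groups with dexamethasone against vehicle, a quantity that does not involve the difference between those groups. The same estimate of each gene's spread served both tests, however, so shares at a small p by class are not independent of how the classes were cut. Of 10716 genes, 1538 (14.4%) were raised and 2384 (22.2%) lowered. Among the 131 genes raised at least 2-fold, the median difference with THSG was 0.01, 127 were bounded within 1.5-fold, and 3 (2.29%) were higher, Cebpd, Gstm1 and Mafa, and 1 (0.76%) lower, Ccdc152, at an unadjusted p under 0.05, against 5.05% and 2.2% of all genes. These counts were 5 and 0 without dexamethasone replicate 3. Mafa gave 0.21 (0.03 to 0.39), or 0.13 without that library and 0.06 once corrected for GC content and transcript length. The 163 genes lowered at least 2-fold had a median difference of 0.04, with 145 bounded within 1.5-fold, 16 (9.82%) higher and 9 (5.52%) lower, both shares above those of all genes. For genes raised less than 2-fold the median was -0.002 with 1390 of 1407 bounded, and for genes lowered less than 2-fold 0.04 with 2141 of 2221 bounded. The 6794 genes that did not pass for dexamethasone had a median of 0.01 and 6408 bounded. No class of responders thus had a median farther than 0.04 from 0. Of the 6 genes most lowered by dexamethasone, Igfbp4, which binds insulin-like growth factors, was 6.28, 5.85 and 5.69 FPKM without THSG and 5.64, 7.17 and 4.76 with it and its difference -0.04 (-0.31 to 0.23). The lipase inhibitor gene G0s2 gave -0.03 (-0.39 to 0.32), the collagen gene Col8a1 0.02 (-0.19 to 0.23) and Dynap -0.11 (-0.27 to 0.04). Tnc and Timp3, both of the extracellular matrix, are described with that group.

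Of the genes of muscle protein breakdown, the ubiquitin ligases and their regulators could be described. All 28 listed ubiquitin ligases and regulators were measured, and 28 of 28 were bounded within 1.5-fold, 23 of them within a log2 difference of 0.32. Without dexamethasone replicate 3, 27 were bounded within 1.5-fold. Their median difference was 0.01, with 14 above 0 and 14 below, and lay between -0.03 and 0.02 under the alternatives. Fbxo32, the ligase atrogin-1, had 17.4 FPKM in vehicle and was 75.2, 72.4 and 75.2 FPKM without THSG and 74.8, 73.8 and 70.1 with it. Trim63, the ligase MuRF1, was 34.6, 34.6 and 29.7 FPKM without THSG and 34.5, 31.1 and 34.5 with it. In both the groups overlap, and the intervals were -0.13 to 0.08 for Fbxo32 and -0.15 to 0.19 for Trim63. Cblb, a ligase that acts on insulin receptor substrate, gave -0.05 (-0.20 to 0.10), Fbxo30, called MUSA1, -0.08 (-0.22 to 0.05), Trim55, called MuRF2, -0.03 (-0.14 to 0.07) and Nedd4 0.02 (-0.07 to 0.10). The forkhead genes Foxo1, Foxo3 and Foxo4, whose products drive the ligase genes, gave 0.03 (-0.17 to 0.22), 0.03 (-0.10 to 0.15) and -0.12 (-0.28 to 0.05). Mul1, a ligase of the mitochondrial outer membrane, had the smallest p of the list. It was 19.9, 17.7 and 21.7 FPKM without THSG and 18.1, 17.0 and 13.5 with it, groups that overlap, with a difference of -0.29 (-0.55 to -0.04) and an adjusted p of 0.676. It was the 1 member with an unadjusted p under 0.05, and there was none without dexamethasone replicate 3. Only 1 of 31 proteasome subunits was measured, Psmd1 at -0.08 (-0.19 to 0.03), so the proteasome cannot be described.

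Contractile and differentiation genes showed no member at an unadjusted p under 0.05 in either direction among 45 sarcomere genes, 24 of excitation-contraction coupling and 25 myogenic regulators and fusion genes, where 7.25% of all genes had one. Leaving out dexamethasone replicate 3, 1 sarcomere gene and 1 of the myogenic list were lower. The medians were 0.01, -0.01 and 0.003, and 44, 24 and 25 members were bounded within 1.5-fold. The unbounded member was the Z-disc gene Myoz1, at 2.84, 2.28 and 1.78 FPKM without THSG and 3.41, 2.72 and 1.90 with it. Acta1, skeletal alpha-actin, was 3209, 3215 and 2885 FPKM without THSG and 3189.7, 3256 and 3309 with it, with a difference of 0.07 (-0.09 to 0.23). Myh1, a fast myosin heavy chain that dexamethasone raised, was 468, 503 and 449 FPKM without THSG and 448, 488 and 473 with it, a difference of -0.01 (-0.12 to 0.10). Both overlap between the groups. The other myosin heavy chains Myh2, Myh4 and Myh7 gave -0.03 (-0.18 to 0.12), -0.02 (-0.13 to 0.08) and 0.09 (-0.12 to 0.30), and titin, Ttn, gave -0.07 (-0.21 to 0.07). Among calcium handling genes, the pump gene Atp2a1 was at -0.002 (-0.11 to 0.10), the release channel gene Ryr1 at 0.02 (-0.09 to 0.13) and the calsequestrin gene Casq2 at -0.01 (-0.10 to 0.07). The myogenic factor Myog was 397, 384 and 396 FPKM without THSG and 415, 381 and 394 with it, a difference of 0.02 (-0.08 to 0.12), and Myod1 gave 0.04 (-0.06 to 0.13). Mymk, which encodes the fusion protein myomaker, was 529, 521 and 514 FPKM without THSG and 529, 541 and 546 with it, with the groups apart by a narrow margin and a difference of 0.05 (-0.04 to 0.13). Eya1, a transcriptional cofactor, had the smallest p of the myogenic list at -0.24 (-0.48 to 0.004).

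Of 31 measured genes of IGF, insulin and mTOR signalling, 31 were bounded within 1.5-fold and 29 within a log2 difference of 0.32, with a median of -0.003. Igfbp2, which binds insulin-like growth factors, was the 1 member with an unadjusted p under 0.05, at 75.2, 67.4 and 82.1 FPKM without THSG and 79.9, 82.8 and 86.0 with it and a difference of 0.15 (0.01 to 0.29), and 0.03 once corrected for GC content and transcript length. In myostatin, activin and BMP signalling, 27 of 28 were bounded within 1.5-fold, all but the inhibitor gene Smad7 at 0.32 (-0.07 to 0.72), which was 0.49 without dexamethasone replicate 3. At an unadjusted p under 0.05, 3 members (10.7%) were higher and 1 (3.57%) lower, against 5.05% and 2.2% of all genes, and 1 was higher and 1 lower without that library. Bmp4, a growth factor that dexamethasone lowered from 13.1 FPKM in vehicle, was 4.94, 6.78 and 5.13 FPKM without THSG and 4.39, 4.26 and 4.94 with it, with the THSG libraries under the others, the nearest pair almost equal, and a difference of -0.29 (-0.55 to -0.03). Inhbb, a subunit of activin, gave 0.14 (0.01 to 0.27), its antagonist Fstl3 0.27 (0.01 to 0.53) and the BMP target Id1 0.25 (0.002 to 0.49), which came to 0.10 (-0.08 to 0.29) without that library. Myostatin and Igf1 were not found in the table.

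NRF2 and its targets had the highest median difference of the 32 lists with at least 5 measured genes. All 27 listed genes were measured, and the median was 0.09, with 23 of 27 above 0 where 6020 of all 10716 genes were. No member passed over all genes, and 27 of 27 were bounded within 1.5-fold and 22 within a log2 difference of 0.32. At an unadjusted p under 0.05, 6 (22.2%) were higher with THSG and 0 lower, against 5.05% and 2.2% of all genes, and 4 and 0 without dexamethasone replicate 3. In 11 members the libraries with THSG all lay above the others and in 1, Gsr, all below, against 8.41% and 4.84% of all genes. Library by library, the median of the 27 members relative to each gene's mean over the 6 libraries was -0.02, -0.05 and -0.03 without THSG and 0.06, 0.03 and 0.04 with it, so the groups did not overlap. The median was 0.10 without dexamethasone replicate 3, with 21 members above 0. It was 0.08 once corrected for base composition and length, and ran from 0.07 to 0.12 over all alternatives.

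**Figure D3:**
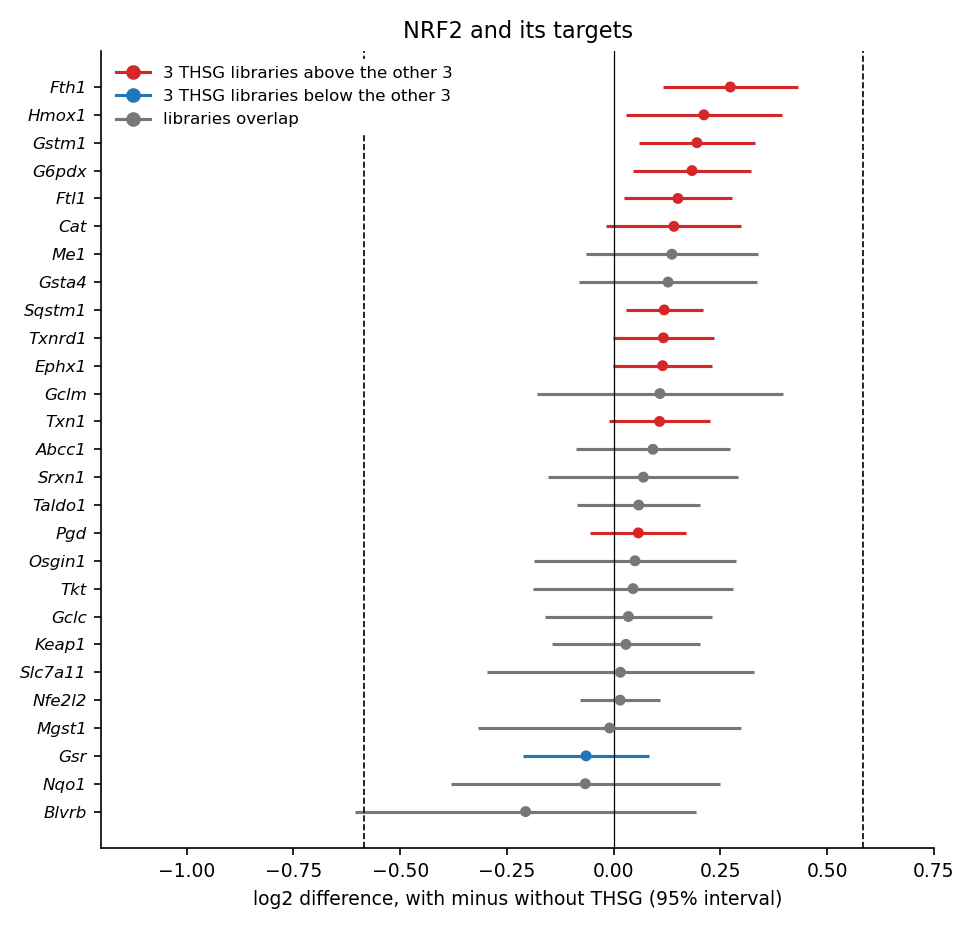
Log2 difference with its 95% interval for the 27 genes of the NRF2 list, red where the 3 THSG libraries lay above the other 3, blue where they lay below and grey where the libraries overlap, with dashed lines at 1.5-fold. Fth1 is highest at 0.27 and Blvrb lowest at -0.21, whose two-sided interval crosses the dashed line although its one-sided tests passed.

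Among the iron-binding members, Fth1, the ferritin heavy chain, was 1884, 1967 and 1716 FPKM without THSG and 2290.0, 2244 and 2185 with it, with a difference of 0.27 (95% interval 0.11 to 0.43) and an adjusted p of 0.465. Ftl1, the light chain, was 329, 310.1 and 285 FPKM without THSG and 344, 339.7 and 340.4 with it, a difference of 0.15 (0.02 to 0.28) that was 0.10 without dexamethasone replicate 3 and 0.08 once corrected for GC content and length. Both ferritin chains stood apart between the groups, and both have near-identical gene copies, so how their reads were divided is uncertain. Hmox1, heme oxygenase, which releases iron from heme, was 20.3, 19.0 and 19.7 FPKM without THSG and 22.6, 21.5 and 24.4 with it, with groups apart and a difference of 0.21 (0.03 to 0.40). Of the glutathione and NADPH enzymes, Gstm1, a glutathione transferase that dexamethasone raised from 25.6 FPKM in vehicle, was 63.0, 59.7 and 64.2 FPKM without THSG and 74.8, 72.3 and 67.0 with it, a difference of 0.20 (0.06 to 0.33). G6pdx, the first enzyme of the pentose phosphate pathway, was 10.3, 9.83 and 10.1 FPKM without THSG and 11, 11.2 and 12.2 with it, a difference of 0.18 (0.05 to 0.32). Both were apart between the groups, and the mean of G6pdx in vehicle was 15.1 FPKM. The glutathione synthesis genes Gclc and Gclm gave 0.03 (-0.16 to 0.23) and 0.11 (-0.18 to 0.40), and the cystine carrier gene Slc7a11 0.02 (-0.30 to 0.33). In the thioredoxin system, Txnrd1 gave 0.12 (-0.001 to 0.23), Txn1 0.11 (-0.01 to 0.23) and Srxn1 0.07 (-0.15 to 0.29). Sqstm1, the autophagy receptor p62 that also binds KEAP1, was 235, 231 and 224 FPKM without THSG and 249.7, 253 and 247 with it, apart between the groups, with a difference of 0.12 (0.03 to 0.21). The differences of the regulators were smaller, with Nfe2l2, which encodes NRF2, at 63.2, 61.9 and 65.3 FPKM without THSG and 64.1, 62.6 and 65.6 with it and 0.02 (-0.08 to 0.11), and Keap1 at 0.03 (-0.15 to 0.20). Nqo1, a quinone reductase often used to read NRF2 activity, was 2.58, 2.93 and 3.57 FPKM without THSG and 2.74, 2.95 and 2.91 with it, groups that overlap, with a difference of -0.07 (-0.38 to 0.25).

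Of the related groups, 25 antioxidant enzymes had a median of 0.07, which was 0.04 without dexamethasone replicate 3. Only Selenow, a small selenoprotein, had an unadjusted p under 0.05 among them, at 69.7, 58.9 and 62.7 FPKM without THSG and 74.1, 68.5 and 73.8 with it and a difference of 0.18 (0.04 to 0.32), or 0.11 once corrected. Catalase, Cat, was 23.9, 25.5 and 24.9 FPKM without THSG and 29.0, 26.6 and 26.3 with it, apart between the groups, with a difference of 0.14 (-0.02 to 0.30). Stilbenes such as resveratrol are known ligands of the aryl hydrocarbon receptor, and of 9 measured genes of that pathway 0 were higher at an unadjusted p under 0.05. Ahr, the receptor, was 3.60, 4.29 and 4.19 FPKM without THSG and 3.68, 3.23 and 3.13 with it, groups that overlap, with a difference of -0.26 (-0.50 to -0.01). Its targets Cyp1b1 and Tiparp gave 0.01 (-0.11 to 0.12) and -0.02 (-0.16 to 0.11). Among 28 sirtuins and genes of mitochondrial biogenesis the median was -0.005 and 28 were bounded within 1.5-fold. Sirt1, a deacetylase, was 8.17, 9.38 and 10.3 FPKM without THSG and 9.01, 9.16 and 7.60 with it, which overlap. Esrra, a nuclear receptor of oxidative metabolism, was at 0.23 (0.01 to 0.44), or 0.14 without dexamethasone replicate 3, and 2 members had an unadjusted p under 0.05 in the other direction, Tfam, the mitochondrial transcription factor, at -0.16 (-0.31 to -0.01) and the fission gene Dnm1l at -0.11 (-0.21 to -0.004). Without that library 0 members of this list had one.

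Genes of the ribosome and the respiratory chain had medians above 0 by less than 0.1. Part of that moved with dexamethasone replicate 3 and with the correction for GC content and length. Of 77 nuclear genes of oxidative phosphorylation, 62 were above 0, where 6020 of all 10716 genes were. At an unadjusted p under 0.05, 11 (14.3%) were higher, against 5.05% of all genes, and 5 without dexamethasone replicate 3. The list had a median of 0.07 that was 0.03 without that library, 0.04 once corrected for GC content and length, and 0.02 with both changes. The library medians were -0.01, -0.01 and -0.09 without THSG and 0.08, 0.01 and 0.03 with it. Ndufb2, a complex I subunit, was 36.2, 44.9 and 29.2 FPKM without THSG and 54.9, 46.1 and 47.5 with it, a difference of 0.45 (0.13 to 0.76) that was 0.29 without dexamethasone replicate 3. Sdhc, of complex II, was 49.2, 48.1 and 47.0 FPKM without THSG and 65.8, 54.4 and 54.2 with it, a difference of 0.27 (0.11 to 0.43), and Cox8a, of complex IV, gave 0.28 (0.09 to 0.48). The groups of these 3 genes did not overlap. The 13 mitochondrially encoded genes lay the other way. All 13 were below 0, with a median of -0.11 and 0 at an unadjusted p under 0.05. The median was -0.06 once corrected for GC content and length, and -0.04 without dexamethasone replicate 3, with 1 gene above 0. In that library they stood 0.23 above their mean, and in the other 5 between -0.13 and 0.01. mt-Nd4, of complex I, was 1902, 1896 and 2326 FPKM without THSG and 1773, 1734 and 1819 with it, a difference of -0.19 (-0.40 to 0.01) that became -0.10.

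Of 79 cytosolic ribosomal protein genes, 78 were above 0 with the values as deposited, 71 without dexamethasone replicate 3 and 55 with quantile normalization. The median was 0.07, 0.04 without that library, and 79 of 79 were bounded within 1.5-fold. Once corrected for GC content and length, the median was 0.05, with 66 genes above 0. With both changes it was 0.02, against 0.01 over all genes. At an unadjusted p under 0.05, 8 (10.1%) were higher and 0 lower, against 5.05% and 2.2% of all genes, and 2 and 0 without that library. Rpl13 was 422, 435 and 382 FPKM without THSG and 536, 513 and 496 with it, apart between the groups, with a difference of 0.32 (95% interval 0.16 to 0.48) and an adjusted p of 0.348. Rpl41, the most abundant, gave 0.15 (0.01 to 0.30) and Rps6, the target of S6 kinase, 0.04 (-0.06 to 0.15). Reads of ribosomal protein genes can be shared with their many processed pseudogenes, so single members are uncertain. Of 75 mitochondrial ribosomal proteins, 7 (9.33%) were higher and 2 (2.67%) lower at an unadjusted p under 0.05, and 6 and 3 without dexamethasone replicate 3, with a median of 0.06. Mrps24 had the smallest p at 0.40 (0.12 to 0.68), and the lower members were Mrpl40 at -0.23 (-0.44 to -0.03) and Mrps30 at -0.26 (-0.46 to -0.06).

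Across the 32 lists the medians ran from -0.11 to 0.09, and 31 of them lay within 0.1 of 0. For 7 lists the 3 library medians with THSG all lay above the 3 without, and for 0 lists all below. The medians over all genes were apart in the same direction, at -0.01, -0.001 and -0.01 without THSG and 0.02, 0.001 and 0.01 with it. The 7 lists were the NRF2 targets, the glucocorticoid response, IGF, insulin and mTOR signalling, the extracellular matrix, nuclear oxidative phosphorylation, mitochondrial ribosomal proteins, and p53 targets and apoptosis. For IGF, insulin and mTOR signalling the nearest library medians of the groups were only -8.8e-06 and 0.001. Dexamethasone replicate 3 was the lowest of the 6 libraries in 19 of the 32 lists.

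**Figure D4:**
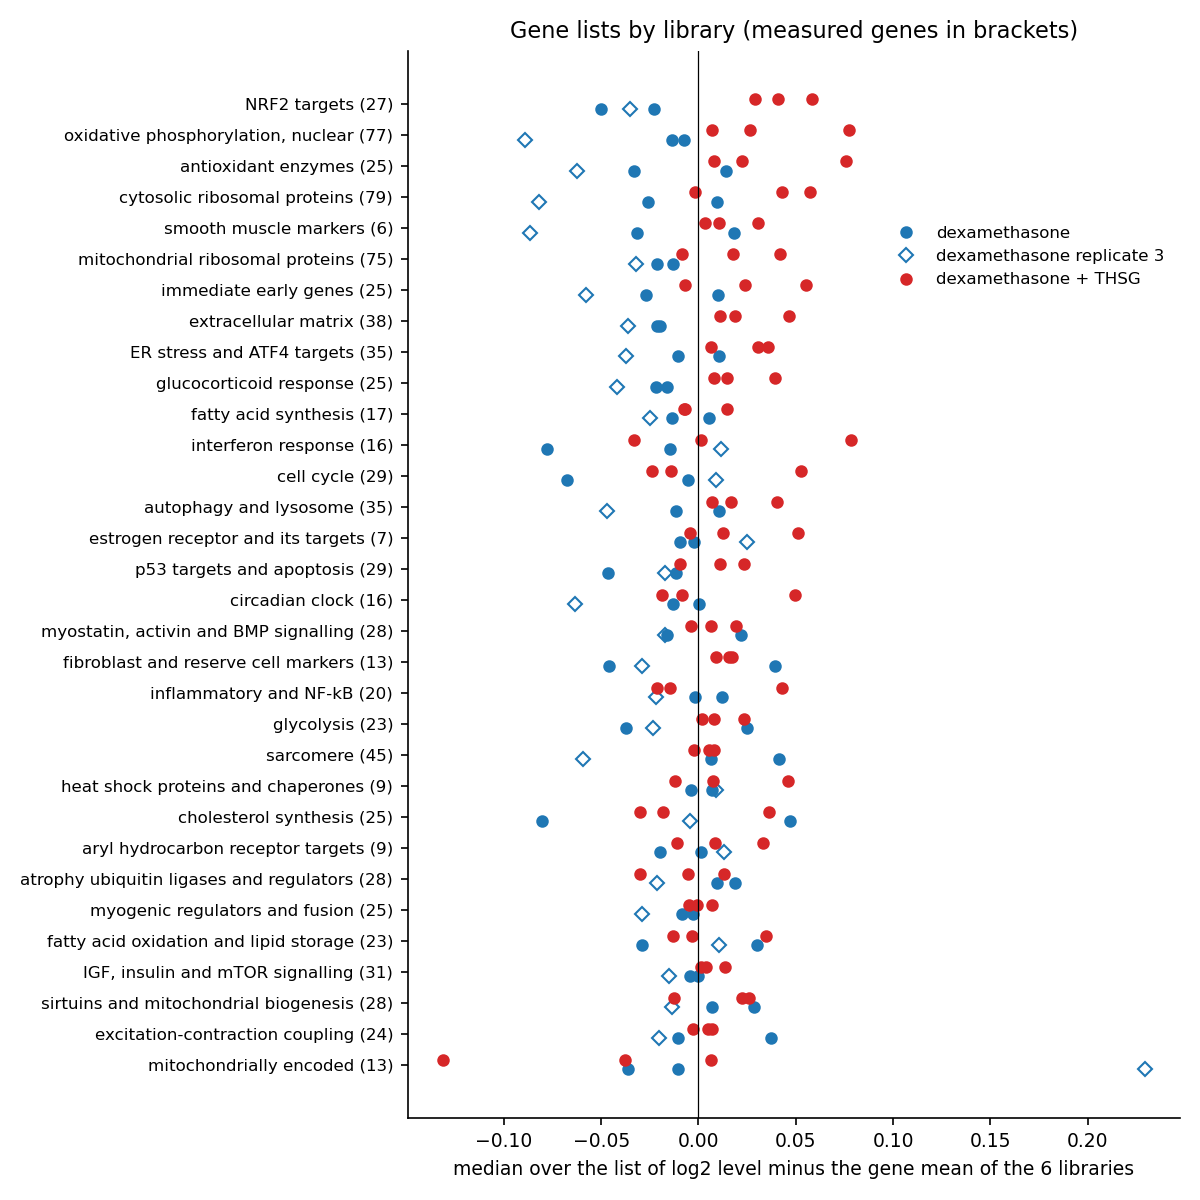
For each of the 32 gene lists (number of measured genes in brackets), the median over its genes of the log2 level minus the gene's mean over the 6 libraries, in each library with dexamethasone (blue, replicate 3 as an open diamond) and with dexamethasone plus THSG (red). The groups are apart for the NRF2 targets with all libraries on their side, while the mitochondrially encoded genes are spread by dexamethasone replicate 3 at 0.23.

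Extracellular matrix genes, with a median response to dexamethasone of -0.46 on the log2 scale, had a median of 0.05 over 38 genes, 38 of them bounded within 1.5-fold. At an unadjusted p under 0.05, 5 (13.2%) were higher and 1 (2.63%) lower, against 5.05% and 2.2% of all genes, and 3 and 0 without dexamethasone replicate 3. Loxl1, which cross-links elastin, was 59.0, 52.5 and 50.2 FPKM without THSG and 61.7, 65.5 and 66.2 with it, apart between the groups, a difference of 0.26 (0.11 to 0.41). The other 4 were Col18a1 at 0.20 (0.07 to 0.33), the protease inhibitor gene Timp1 at 0.16 (0.05 to 0.27), tenascin-C, Tnc, at 0.25 (0.06 to 0.44) and the basement membrane gene Nid2 at 0.11 (0.01 to 0.22). Timp3, a second inhibitor of matrix proteases, was the lower one. It was 11.6, 10.6 and 12.1 FPKM without THSG and 9.70, 10.1 and 9.77 with it, apart between the groups, a difference of -0.20 (-0.38 to -0.03), or -0.16 (-0.36 to 0.04) without that library, and vehicle myotubes had 51.4 FPKM. Fn1 and Col1a1, the fibronectin and collagen genes, gave 0.04 (-0.07 to 0.15) and 0.08 (-0.05 to 0.22).

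Stress and early response genes gave scattered members with small p. Among 35 genes of ER stress and the ATF4 pathway, 5 (14.3%) were higher and 1 (2.86%) was lower at an unadjusted p under 0.05, against 5.05% and 2.2% of all genes, with a median of 0.05. The counts were 3 and 0 without dexamethasone replicate 3. Phgdh, the first enzyme of serine synthesis, was 25.5, 25.9 and 23.0 FPKM without THSG and 28.4, 28.2 and 30.4 with it, a difference of 0.23 (0.09 to 0.36), and Ddit3, the stress factor CHOP, was 21.0, 18.3 and 19.1 FPKM without THSG and 22.6, 21.4 and 24.1 with it, a difference of 0.22 (0.07 to 0.37). The groups of both were apart. Atf5 gave 0.44 (0.12 to 0.76), which was 0.24 without dexamethasone replicate 3. Of 25 immediate early genes, 4 (16%) were higher, Klf2, Jund, Atf3 and Junb, and 2 without that library. Junb gave 0.19 (0.001 to 0.37), or 0.10 without that library and 0.06 once corrected for base composition and length. Jund was 26.6, 29.3 and 25.4 FPKM without THSG and 31.1, 37.9 and 30.8 with it, a difference of 0.29 (0.11 to 0.47), and 0.08 once corrected for base composition and length. Of 29 p53 targets and apoptosis genes 4 (13.8%) were higher, among them Phlda3, Bax and Bad, and 1 without that library. Bad gave 0.33 (0.04 to 0.62), or 0.20 without that library. The p53 target Cdkn1a, a brake of the cell cycle, was 798, 817 and 805 FPKM without THSG and 809, 791 and 812 with it, a difference of -0.005 (-0.10 to 0.09). Bax, a pore-forming death protein, gave 0.20 (0.04 to 0.36), and 0.06 after that correction. In autophagy and the lysosome 4 of 35 (11.4%) were higher, Sqstm1, Map1lc3a, Atg4b and Pink1, and 0 without that library. Map1lc3a was at 0.22 (0.05 to 0.39), 0.14 without dexamethasone replicate 3 and 0.08 corrected. The shares in these 3 lists also stand against 5.05% of all genes. Of 29 cell cycle genes, with a median response to dexamethasone of -0.72, Cdk4, Ube2c and Cdc20 (10.3%) were higher and Ccna2 (3.45%) was lower at an unadjusted p under 0.05, and 3 were higher and 0 lower without that library. Ube2c, a ubiquitin-conjugating enzyme of mitosis, was 3.81, 3.40 and 3.40 FPKM without THSG and 4.19, 4.41 and 4.93 with it and Ccna2, cyclin A2, 2.58, 3.43 and 3.32 FPKM without THSG and 2.40, 2.06 and 2.84 with it.

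The genes nearest to the threshold were, by the rule for naming, Cks2, Emc8, Fam89b, HM13, Klf2, Mvb12a, Phlda3, Rps2-ps10, Scand1 and Xpa, each with an adjusted p of 0.227 to 0.230 and all higher with THSG. Cks2, a small subunit of cyclin-dependent kinases, was 3.83, 3.70 and 5.46 FPKM without THSG and 7.31, 6.30 and 7.22 with it, and vehicle myotubes had 12.8 FPKM. Its groups did not overlap and the difference was 0.69 (95% interval 0.39 to 0.98). Without dexamethasone replicate 3, the highest of its group, the difference was 0.86 and passed the limma test at an adjusted p of 0.0383. Emc8, of the membrane insertion complex of the ER, was 7.37, 7.63 and 5.46 FPKM without THSG and 11.9, 10.9 and 12.2 with it, a difference of 0.78 (0.46 to 1.10). Scand1, a small SCAN domain protein, was 5.69, 6.83 and 7.36 FPKM without THSG and 15.5, 16.8 and 10.4 with it, a difference of 1.07 (0.63 to 1.5) that was 0.83 once corrected for base composition and length. Xpa, of nucleotide excision repair, was 9.78, 7.95 and 9.56 FPKM without THSG and 12.3, 12.3 and 14.0 with it, a difference of 0.50 (0.31 to 0.70). In each of these 4 genes the lowest THSG library lay above the highest other one. The means in vehicle were 14.3 FPKM for Emc8, 17.6 for Scand1 and 11.6 for Xpa. Of the 10 genes, 6 had a mean with THSG between that with dexamethasone alone and that in vehicle (Cks2, Emc8, Mvb12a, Phlda3, Rps2-ps10 and Scand1), and 4 had one above both (Fam89b, HM13, Klf2 and Xpa). Mvb12a was almost level with vehicle, at 19.97 FPKM with THSG and 20.01 FPKM in vehicle. The genes were chosen by these same dexamethasone and THSG values, so the tally cannot show whether THSG reverses a dexamethasone response. Phlda3, a p53 target that restrains Akt, was 88.2, 89.9 and 82.9 FPKM without THSG and 104, 105 and 110.3 with it, a difference of 0.29 (0.18 to 0.40) that was 0.16 after that correction. The transcription factor gene Klf2 was 13.8, 13.5 and 13.8 FPKM without THSG and 17.0, 17.5 and 16.5 with it, a difference of 0.31 (0.17 to 0.44) that was 0.20 after it. HM13, which encodes signal peptide peptidase, was 67.0, 67.3 and 70.7 FPKM without THSG and 78.6, 79.1 and 80.7 with it, the narrowest of the 10 at 0.22 (0.13 to 0.31). Rps2-ps10 was 339, 333 and 291 FPKM without THSG and 451, 468 and 419 with it, a difference of 0.47 (0.30 to 0.65). It is listed as a pseudogene of the ribosomal protein gene Rps2, whose own value was 219, 203 and 214 FPKM without THSG and 213, 233 and 235 with it, so how reads were divided between them is uncertain.

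The largest falls among genes with groups apart, a symbol and a mean of at least 5 FPKM were those of Morn2, Rn7s1, Rn7s2, Grk5, Ermard and Ppie. Morn2 was 9.40, 8.67 and 11.3 FPKM without THSG and 6.25, 8.0 and 5.66 with it, a difference of -0.56 (-0.89 to -0.23), and Grk5, a kinase of G protein-coupled receptors, 6.82, 5.11 and 7.87 FPKM without THSG and 4.16, 5.02 and 4.17 with it, a difference of -0.54 (-1.02 to -0.06). Ermard was 12.9, 12.9 and 14.2 FPKM without THSG and 10.9, 9.63 and 10.2 with it, a difference of -0.38 (-0.57 to -0.18), and Ppie, a peptidyl-prolyl isomerase, gave -0.38 (-0.58 to -0.18). Rn7s1 and Rn7s2 are near-identical copies of the signal recognition particle RNA, with nearly equal values, so they count as 1 measurement. Rn7s1 was 14.6, 15.7 and 15.5 FPKM without THSG and 14.4, 12.2 and 6.45 with it, a difference of -0.54 (-1.06 to -0.02) in which THSG replicate 3 stood far below the rest, and -0.20 without that library. Being small and without a poly(A) tail, this RNA is not a target of mRNA libraries.

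A part of the spread followed the base composition and length of the transcripts, taken from GENCODE annotation of the mouse build GRCm38. In 5 equal classes of rising GC content the median difference was -0.05, -0.01, 0.02, 0.04 and 0.07. Without dexamethasone replicate 3 the 5 medians were -0.03, -0.002, 0.01, 0.03 and 0.04, and after the correction that removes such trends from each library they were 0.01, 0.01, 0.01, 0.02 and 0.01. In the class of lowest GC content 31 genes (1.45%) were higher and 116 (5.44%) lower at an unadjusted p under 0.05. In that of highest GC content 224 (10.5%) were higher and 11 (0.515%) lower, against 5.05% and 2.2% of all genes. Without dexamethasone replicate 3 the counts were 33 higher and 55 lower at lowest GC content, and 124 higher and 20 lower at highest. Over 5 classes of rising transcript length the medians were 0.05, 0.03, 0.02, 0.005 and -0.01. By library, dexamethasone replicate 3 went from 0.08 at low to -0.09 at high GC content, and THSG replicate 2 the opposite way, from -0.06 to 0.06. The trend was thus carried by libraries of both groups. The correction also made other differences named above smaller by over 1.5 times. At an unadjusted p under 0.05 they included those of Ccdc152, at -0.09, Cebpb, at 0.29, Col18a1, at 0.12, Dnm1l, at -0.04, Inhbb, at 0.06, and Rpl41, at 0.10. At a larger p they included those of Mt2, at 0.05, Acta1, at 0.01, Col1a1, at 0.03, Fbxo30, at -0.004, and mt-Nd4, at -0.13. The corrected fit called 0 genes, with 497 higher and 189 lower at an unadjusted p under 0.05, and 10245 genes bounded within 1.5-fold.

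**Figure D5:**
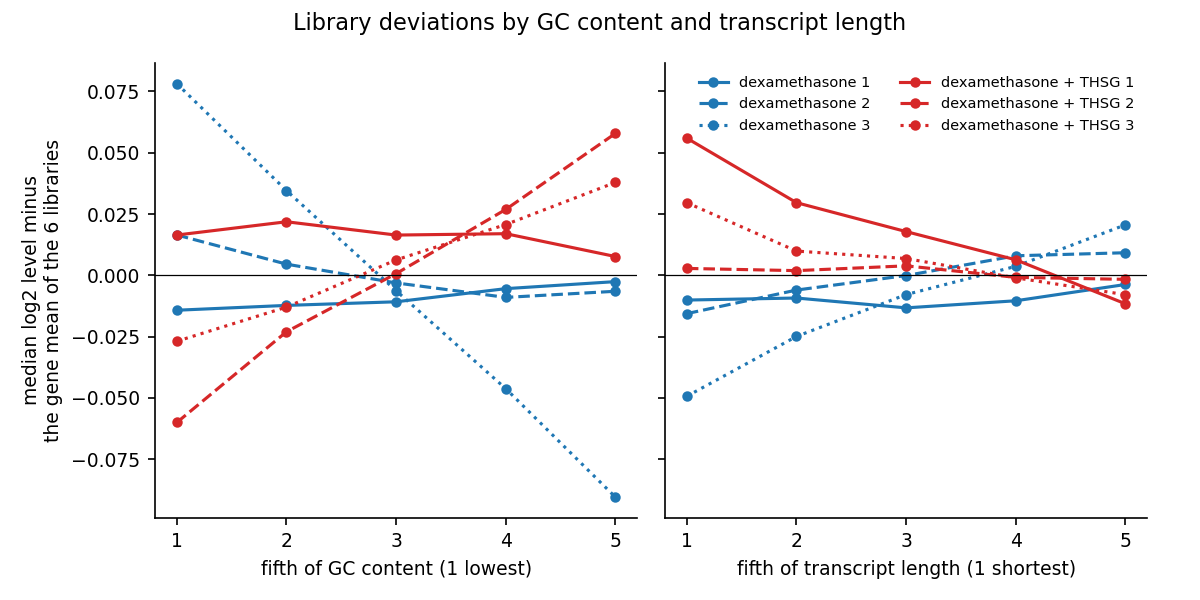
Median log2 level minus each gene's mean over the 6 libraries, by class of GC content (left) and of transcript length (right), 1 line per library, blue for dexamethasone and red for dexamethasone plus THSG. Dexamethasone replicate 3 (blue dotted) falls from 0.08 to -0.09 with rising GC content, and THSG replicate 2 (red dashed) rises from -0.06 to 0.06.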

How the data were processed

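RNA was extracted from 9 samples of C2C12 myotubes and made into stranded mRNA libraries, per the labels' protocols, with 3 libraries per group. Reads were aligned with STAR 2.7.10a to the mouse build GRCm39 (mm39) and counted with featureCounts, per the submitters' processing notes. The table deposited by the authors is named as counts, but its values are fractional and all above 1, so they were taken to be FPKM. That unit is an inference, and how the values were scaled, the strand setting and the filter on low values are not given in the sources used here. No reads could be recovered, so depth is unknown.

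Of 10716 gene identifiers, 10670 were found in GENCODE (GRCm38, an earlier build than the authors used), which gave symbols, transcript length and GC content and no coordinates. For 49 genes with a symbol in human style the mouse symbol was used.

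Values were analysed as log2(FPKM + 0.1) in R 4.3.3 with limma 3.58.1, with 1 mean per group over the 9 libraries, an intensity trend, two-sided tests and Benjamini-Hochberg adjustment over all genes at 0.05. Bounds came from pairs of one-sided tests of the same model against a fixed fold, adjusted likewise. The script was tested on simulated data. Exact permutation tests of single genes were not used, since 3 libraries against 3 cannot give a p below 0.1.

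The comparison, the 37 gene lists (36 with a measured gene) and the bounds were chosen with earlier results of these data known. Named genes are the 10 with the smallest p and the 6 with the largest rise and fall among genes with a symbol, a mean of at least 5 FPKM and groups apart, the member of each list with the smallest p and the one with the highest level, a fixed set of muscle and stress genes, and the 6 genes most raised and most lowered by dexamethasone. Named outside this rule, after their values were seen, were Atf3, Atf5, Atg4b, Bad, Bax, Blvrb, Cat, Cblb, Ccl2, Ccna2, Cdc20, Cebpb, Col18a1, Cox8a, D330050I16Rik, Ddit3, Des, Dnm1l, Fbxo30, Foxo4, Fstl3, Ftl1, G6pdx, Gclc, Gclm, Glul, Gsr, Gstm1, Id1, Ifit3, Immp2l, Inhbb, Jund, Keap1, Klf9, Lpl, Mafa, Map1lc3a, Mrpl40, Mrps30, Myoz1, Ndufb2, Nid2, Per1, Pink1, Rgcc, Rps2, Runx2os1, Ryr1, Slc7a11, Smad7, Srxn1, Tfam, Timp1, Trim55, Ttn, Txn1, Txnrd1 and Ube2c. Some genes that the rule or these lists hold are not reported here. The settings varied were the pseudocount (0 and 1), the scaling, a minimum mean of 5 FPKM, the intensity trend left off, a fit of only the compared groups, a replicate block, a correction for GC content and length by splines with 4 degrees of freedom, and each library left out in turn.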

Additional observations from a re-analysis of the deposited data

How the results depend on the processing

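The count of genes past the threshold, 0 with the values as deposited, was 1 in 5 alternatives. It was 1 without dexamethasone replicate 3 (Cks2, adjusted p = 0.0383 in limma), and 1 when that library was left out together with median-ratio scaling (Cks2, 0.0291) or with the correction for GC content and length (Cks2, 0.0334), both chosen after seeing the data. With a replicate block it was 1 (Rps2-ps10, 0.0215), and with the block and the correction together 1 (Rps2-ps10, 0.00622). The shared replicate numbers were not taken to pair the samples, since the deviations of same-numbered libraries with and without THSG correlated at -0.09, 0.05 and -0.03 for the replicate numbers in order. Over libraries left out in turn, the count ran from 0 to 1, genes higher at an unadjusted p under 0.05 from 396 to 622, genes lower from 157 to 335, and genes bounded within 1.5-fold from 9902 to 10224. The genes higher numbered 333 with median-ratio scaling without dexamethasone replicate 3. No direction of a called gene reversed, since none was called. Among medians of gene lists, 708 of 791 values moved by less than the spread between libraries and 83 by more. Among named genes, 4536 of 4643 values stayed within that spread, 102 moved by more and 5 passed the threshold, the calls of Cks2 and Rps2-ps10 above. Unknown depth limits what can be said of weakly expressed genes, whose bounds are the widest.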

Other observations

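Lists without a member past an unadjusted p of 0.05 included those of inflammation, interferon, the clock and chaperones, though 1 inflammatory gene was lower without dexamethasone replicate 3. The 20 inflammatory and NF-kB genes had a median difference of 0.02 with 19 bounded within 1.5-fold, and the exception, the chemokine gene Ccl2, was 2.63, 3.61 and 2.25 FPKM without THSG and 2.24, 1.47 and 2.72 with it. Of 16 interferon response genes 15 were bounded, and Ifit3 was 1.65, 1.70 and 3.86 FPKM without THSG and 2.68, 2.33 and 1.57 with it, with dexamethasone replicate 3 highest. The 16 clock genes had a median of 0.02, with Nr1d1, a repressor of the clock, at 0.12 (-0.01 to 0.25), and 16 bounded. Of 27 heat shock and chaperone genes only 9 were measured, 9 of them bounded, with a median of 0.01. The 7 measured estrogen receptor targets had a median of 0.03.

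Lipid and sugar metabolism gave 1 member each past an unadjusted p of 0.05, all higher with THSG, which is 4% to 5.88% of each list against 5.05% of all genes. Without dexamethasone replicate 3 the lists of fatty acid oxidation and of glycolysis had none, and that of cholesterol synthesis had 2. With every library, the 1 member of each list was as follows. In 25 cholesterol genes, with a median of 0.01, it was the sterol regulator Srebf2, at 72.2, 71.8 and 71.9 FPKM without THSG and 74.3, 79.9 and 77 with it and a difference of 0.10 (0.004 to 0.19), or 0.06 once corrected for GC content and length. In 17 genes of fatty acid synthesis, median 0.04, it was the desaturase Fads1 at 0.15 (0.04 to 0.26), and in 23 of fatty acid oxidation and storage, median 0.001, the fatty acid-binding protein gene Fabp3, at 28.8, 29.6 and 28.0 FPKM without THSG and 32.3, 36.2 and 32.1 with it and a difference of 0.22 (0.03 to 0.41). In 23 glycolysis genes, median 0.02, it was Pfkp at 0.15 (0.01 to 0.29). Gapdh, the glycolytic enzyme often used as a reference gene, was at 0.06 (-0.06 to 0.18).

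Of the markers of other cell types, 6 of 9 smooth muscle markers were measured. They summed to 1751 to 1832 FPKM without THSG and 1867 to 1890.5 FPKM with it, mostly Acta2 and Des, and Tagln was 16.4, 15.1 and 15 FPKM without THSG and 20.5, 19.2 and 17.0 with it, a difference of 0.28 (0.09 to 0.46). The 13 fibroblast and reserve cell markers summed to 2907 to 3106 and 2945 to 3307 FPKM, which overlap. The 4 osteoblast and chondrocyte markers summed to 631 to 672 and 672 to 718 FPKM, nearly all of it Spp1, osteopontin. The 3 measured adipocyte markers, Cebpa, Lpl and Pparg, gave 0.12 (-0.11 to 0.34), 0.09 (-0.16 to 0.33) and 0.23 (-0.12 to 0.58). Whether these markers bear on the other differences was not tested.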
